A study of Mus musculus with 3 samples.

Results

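Chromatin modifiers are the enzymes and complex subunits that write, erase or read out marks on histones and DNA or that move nucleosomes. The 32 genes described here were listed by name and matched by symbol, each to exactly 1 of the 31053 genes in the expression tables. They are 10 class I, II and IV histone deacetylases, the sirtuin Sirt1, 4 genes of Polycomb repressive complex 2, 3 DNA methyltransferases, 3 TET dioxygenases, 3 histone demethylases, 4 ATP-dependent remodellers and 4 histone acetyltransferases. The rule uses no expression value, but the members were chosen with earlier results of these data known. All 32 had at least 1 UMI (unique molecular identifier, a count of 1 captured RNA molecule) in each library.

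The study made single-cell RNA libraries from cochlear explants of mice aged 4 to 6 weeks that carried rtTA, tet-on-Myc and tet-on-NICD, transgenes that switch on the transcription factor Myc and the active intracellular part of the Notch receptor when doxycycline is given. Explants of the Dox group received doxycycline (Dox) at 2 µg/ml for 4 days and gave 2 libraries, named Dox 1 and Dox 2, and explants of the same genotype given sterile water gave 1 Control library. Each library pooled 4 cultures, the sensory epithelium was dissected after the treatment, and the labels do not say which promoter drives rtTA. The Control group is therefore a single pooled library, and p-values between treatments measure the spread between the 2 Dox libraries, which may be technical in part.

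Histone deacetylases take acetyl groups off histones and mostly accompany repression, and the acetyltransferases Ep300, Crebbp, Kat2b and Kat6a put them on. Polycomb repressive complex 2 methylates lysine 27 of histone H3 through Ezh2 or Ezh1 and needs Suz12 and Eed, and the demethylases Kdm6a and Kdm6b take that mark off again. Dnmt1 copies DNA methylation onto newly made strands, Dnmt3a and Dnmt3b add it at new sites, and the TET enzymes oxidise it. In the mature mammalian cochlea, supporting cells are normally quiescent, and repressive chromatin at hair cell genes is one of the barriers discussed for their conversion.

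After filters, 595 and 925 Dox cells and 283 Control cells were kept, with median depths of 20441, 29877 and 12829 UMIs, and 18 clusters were formed. Clusters were named by markers: cochlear epithelium-like (168 and 356 Dox cells, 53 Control cells), of which supporting cell-like cells are a part (57, 26 and 23), glia-like (38, 50 and 28) and macrophage-like (45, 24 and 23). No cluster had the markers of hair cells, although 10 of 12 hair cell markers had UMIs in the epithelium-like class of each library. The clusters of the epithelium-like class were unevenly filled: a cluster led by Gabrp held 45 of 168 and 142 of 356 Dox cells, against 2 of 53 Control cells, and the supporting cell-like cluster was the largest of the class in Dox 1 and in Control. The libraries also shared barcodes: 101 between Dox 1 and Control, 92 between Dox 2 and Control and 68 between Dox 1 and Dox 2. Shared barcodes had near-constant ratios of UMIs between the libraries, so each was kept only where it had most UMIs, and the calls that change with all of them kept are given. Levels are in CPM, the UMIs of a gene scaled to a common total of UMIs.

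The promoters of Ezh2, Suz12 and Dnmt1 are shown because these 3 genes differed most between cycling and non-cycling epithelium-like cells, and that of Ezh1 because it is the paralog of Ezh2. Sequences are from RefSeq on GRCm38.p6, cover 250 bases before to 50 bases after an annotated gene start, and were listed for 27 of the 32 members. Capitals mark an E2F-type word, that is TTTCCCGC, TTTCGCGC, TTTGCCGC or TTTGGCGC or the reverse complement of one of them, found by exact match on either strand. E2F factors are known regulators of genes used for DNA replication. The words were searched after the values were seen.
Ezh2 promoter, chr6:47594981-47595280, minus strand: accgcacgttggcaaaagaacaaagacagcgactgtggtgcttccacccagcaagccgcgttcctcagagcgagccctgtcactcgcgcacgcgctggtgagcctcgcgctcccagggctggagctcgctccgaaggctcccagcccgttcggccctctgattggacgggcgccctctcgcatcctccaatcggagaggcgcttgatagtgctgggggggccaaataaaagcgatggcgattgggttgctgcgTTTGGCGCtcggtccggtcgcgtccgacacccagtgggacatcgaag
Suz12 promoter, chr11:79992856-79993155, plus strand: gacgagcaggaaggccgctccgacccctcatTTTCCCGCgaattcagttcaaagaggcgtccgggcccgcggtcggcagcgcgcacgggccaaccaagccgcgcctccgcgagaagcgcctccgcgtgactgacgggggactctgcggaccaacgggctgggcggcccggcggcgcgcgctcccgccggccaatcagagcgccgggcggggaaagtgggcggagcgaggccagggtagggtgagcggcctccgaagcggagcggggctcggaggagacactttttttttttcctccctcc
Dnmt1 promoter, chr9:20952574-20952873, minus strand: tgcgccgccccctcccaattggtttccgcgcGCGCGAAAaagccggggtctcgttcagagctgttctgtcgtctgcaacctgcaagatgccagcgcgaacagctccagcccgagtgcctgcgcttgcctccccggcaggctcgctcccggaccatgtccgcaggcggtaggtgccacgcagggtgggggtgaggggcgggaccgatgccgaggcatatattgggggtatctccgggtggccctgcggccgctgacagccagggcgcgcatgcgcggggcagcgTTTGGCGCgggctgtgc
Ezh1 promoter, chr11:101226414-101226713, minus strand: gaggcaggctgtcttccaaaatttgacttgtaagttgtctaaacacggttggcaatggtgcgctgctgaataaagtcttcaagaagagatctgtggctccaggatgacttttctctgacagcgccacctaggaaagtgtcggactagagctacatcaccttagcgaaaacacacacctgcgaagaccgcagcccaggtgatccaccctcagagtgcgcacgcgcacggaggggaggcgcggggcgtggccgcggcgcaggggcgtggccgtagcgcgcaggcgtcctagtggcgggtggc

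Among the 27 members with a listed promoter, 3 held such a word, Ezh2, Suz12 and Dnmt1, against 2.60% of the 27025 genes with a listed promoter. Positions are counted from the RefSeq start on which a window is built, which for Ezh2 and Dnmt1 lies inside the GENCODE span of the gene. In Ezh2 the word began 3 bases after that start, in Suz12 at position -219, and 1 of the 3 Dnmt1 promoters listed, the one printed, held 2 words, at -219 and 33. The promoter of Ezh1, the other catalytic subunit of the complex, held none. The E-box CACGTG, a word that Myc can bind, was found in 4 members, Hdac5, Sirt1, Dnmt3a and Kdm6a, and in 8.09% of all genes with a promoter. GTGGGAA, a word of the Notch effector RBPJ, was found in none of the 27, against 7.25% of all genes. These matches describe letters in the windows and are no measure of binding.

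The members lie on several chromosomes of GRCm38 and were matched to GENCODE M21 by gene identifier. Ezh2 (ENSMUSG00000029687, chr6:47530139-47595341) and Kdm6b (ENSMUSG00000018476, chr11:69398508-69413675), which write and erase the same mark, lie on different chromosomes. The others of the 5 genes called in epithelium-like cells were Chd4 (ENSMUSG00000063870, chr6:125095981-125130591), Tet1 (ENSMUSG00000047146, chr10:62804570-62908996) and Dnmt3b (ENSMUSG00000027478, chr2:153649450-153687730), and Dnmt1 and Suz12, called in cycling cells, were Dnmt1 (ENSMUSG00000004099, chr9:20907209-20959888) and Suz12 (ENSMUSG00000017548, chr11:79993106-80034123). Ezh2 and Chd4 share chromosome 6.

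The first question was whether Dox moved these genes within the cochlear epithelium-like class, where UMIs were summed per library and tested with edgeR's quasi-likelihood F test. Both induced genes were higher in Dox. Myc had 56.9 and 58.6 CPM in the Dox libraries, against 15.98 CPM in Control (log2 difference 1.85 ± 0.21 SE, adjusted p = 0.00934 by edgeR). Notch1 had 507 and 383 CPM in the Dox libraries, against 57.9 CPM in Control (log2 difference 2.94 ± 0.25 SE, adjusted p = 0.00424 by edgeR). UMIs of a transgene and of the endogenous gene cannot be told apart for either.

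Of the 32 members, all tested in this class, 5 were higher in Dox at an adjusted p of 0.05 or less and 0 were lower. The background was 9.37% of the 13321 genes tested that were called higher and 6.53% called lower. The 5 were Ezh2, Dnmt3b, Tet1, Kdm6b and Chd4, which belong to 5 different families and include a writer and an eraser of the same histone mark, Ezh2 and Kdm6b. The median log2 difference was 0.38 over the 32 members and 0.06 over all genes, and 24 members had positive and 8 negative differences.

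Ezh2, the methyltransferase of Polycomb repressive complex 2, had 72.5 and 91.5 CPM in the Dox libraries, against 34.5 CPM in Control. Both Dox libraries lay above Control (log2 difference 1.25 ± 0.24 SE, adjusted p = 0.0281 by edgeR). A single Control cell, the only one of that class that cycled, gave 24 of the 69 Control UMIs of Ezh2, and without the 3 deepest cells of each library the difference was 1.93. Suz12, the subunit that holds the complex together, had 133 and 149 CPM in the Dox libraries, against 86.4 CPM in Control. Eed, which binds the methyl mark, had 48.9 and 53.6 CPM in the Dox libraries, against 42.95 CPM in Control. Ezh1, the catalytic subunit typical of resting cells, pointed the other way with 23.6 and 21.4 CPM in the Dox libraries, against 38.96 CPM in Control. Suz12 and Ezh1 missed the threshold with adjusted p of 0.0519 and 0.0521 by edgeR, and both were called when shared barcodes were kept in every library.

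Kdm6b, a demethylase that removes the mark Ezh2 writes, had 129 and 116 CPM in the Dox libraries, against 60.9 CPM in Control (log2 difference 1.01 ± 0.18 SE, adjusted p = 0.02499 by edgeR). Its relative Kdm6a, on the X chromosome, had 41.01 and 44.1 CPM in the Dox libraries, against 29.97 CPM in Control. Kdm1a, which removes methyl groups from lysine 4 of histone H3, had 198 and 217 CPM in the Dox libraries, against 134 CPM in Control. Only Kdm6b of the 3 demethylases passed the test, and the Kdm1a difference had an adjusted p of 0.0553 by edgeR, or 0.0351 with shared barcodes kept in every library.

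Chd4, the motor of the NuRD repressor complex, had 417 and 419.8 CPM in the Dox libraries, against 257 CPM in Control. The Dox libraries lay close together and above Control (log2 difference 0.70 ± 0.14 SE, adjusted p = 0.0299 by edgeR). With total counts in place of TMM scaling the difference was 0.42 and no longer passed, and the call was lost under 5 of 14 alternatives in all. Chd7, whose loss of function causes CHARGE syndrome with inner ear defects in humans, had 73.9 and 62.5 CPM in the Dox libraries, against 47.9 CPM in Control. Smarca4 (Brg1) had 96.01 and 115 CPM in the Dox libraries, against 79.9 CPM in Control, and its paralog Smarca2 (Brm) had 101 and 85.4 CPM in the Dox libraries, against 84.4 CPM in Control. Chd7, Smarca4 and Smarca2 did not pass the test.

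Both Tet1 and Dnmt3b were low in Control. Tet1, which oxidises methylated cytosine, had 20.7 and 14.9 CPM in the Dox libraries, against 3.496 CPM in Control, where the Control value rests on 7 UMIs (log2 difference 2.33 ± 0.45 SE, adjusted p = 0.0281 by edgeR). Dnmt3b had 5.26 and 5.66 CPM in the Dox libraries, against 0.499 CPM in Control, where the Control value is 1 UMI. The ratio of Dox to Control for Dnmt3b was 11.05 with a counting interval of 1.95 to 439.7 (exact, 95%, counting error only), and the adjusted p was 0.0371 by edgeR. With DESeq2 the calls of both Tet1 and Dnmt3b were lost.

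The other DNA methyltransferases did not pass. Dnmt1 had 109 and 134 CPM in the Dox libraries, against 93.4 CPM in Control, and the 1 cycling Control cell gave 21 of its 187 Control UMIs. Dnmt3a had 62.5 and 56.4 CPM in the Dox libraries, against 43.95 CPM in Control. Tet2 had 21.3 and 23.5 CPM in the Dox libraries, against 24.97 CPM in Control, below Control in both, and Tet3 had 44.7 and 39.2 CPM in the Dox libraries, against 39.5 CPM in Control, on both sides of it.

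None of the 10 deacetylases, nor Sirt1, passed the test in epithelium-like cells. The class I enzymes Hdac1, Hdac2 and Hdac3, catalytic subunits of the large corepressor complexes, had log2 differences of 0.38, 0.12 and 0.38. Hdac1 had 55.7 and 48.7 CPM in the Dox libraries, against 39.95 CPM in Control. A processed pseudogene, Gm10093, shares 86.1% of its 31-base stretches with Hdac1, so the counting could split UMIs between them. Hdac8 had only 3.23 and 4.72 CPM in the Dox libraries, against 1.998 CPM in Control. The class IIa enzymes Hdac4 and Hdac7, which shuttle between nucleus and cytoplasm, were lower in both Dox libraries than in Control without passing: Hdac4 had 16.3 and 18.9 CPM in the Dox libraries, against 29.97 CPM in Control, and Hdac7 had 16.1 and 22.04 CPM in the Dox libraries, against 29.97 CPM in Control. Hdac5 had 26.5 and 23.9 CPM in the Dox libraries, against 21.98 CPM in Control. Hdac11, the class IV enzyme, had 20.3 and 17.9 CPM in the Dox libraries, against 8.49 CPM in Control and an adjusted p of 0.0537 by edgeR, or 0.0384 with shared barcodes kept in every library. Hdac6, a mostly cytoplasmic tubulin deacetylase, had 18.1 and 14.7 CPM in the Dox libraries, against 11.99 CPM in Control. Sirt1, an NAD-dependent deacetylase, had 25.2 and 21.5 CPM in the Dox libraries, against 34.5 CPM in Control. Hdac9 was near the limit of detection in this class, with 0.478 and 0.741 CPM in the Dox libraries, against 0.999 CPM in Control, the last being 2 UMIs.

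The acetyltransferases showed no called change. Ep300 had 63.4 and 56.2 CPM in the Dox libraries, against 76.4 CPM in Control, and its paralog Crebbp had 89.2 and 95.9 CPM in the Dox libraries, against 86.4 CPM in Control. Kat6a (MOZ) had 65.3 and 62.1 CPM in the Dox libraries, against 57.4 CPM in Control, and Kat2b (PCAF) had 24.2 and 22.98 CPM in the Dox libraries, against 27.97 CPM in Control. Adjusted p ranged from 0.227 to 0.718 by edgeR over these 4 genes.

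**Figure D1:**
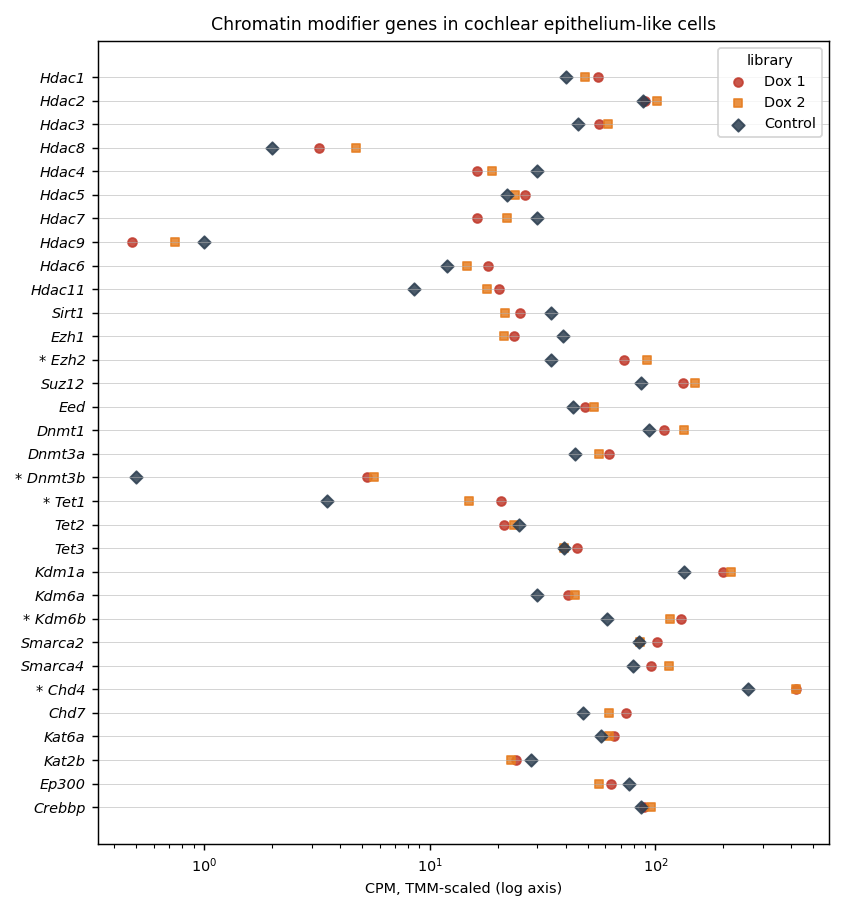
CPM (TMM-scaled, log axis) of the 32 chromatin modifier genes in cochlear epithelium-like cells, 1 point for each of the libraries Dox 1, Dox 2 and Control, with an asterisk at the 5 genes called. Both Dox points of Ezh2, Kdm6b, Chd4, Tet1 and Dnmt3b lie right of the Control point, as at Tet1 with 20.7 and 14.9 against 3.496 CPM.

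Several other measures moved with the treatment in this class. Cycling cells were defined by at least 5 genes and at least 0.1% of UMIs from a list of 28 G2/M genes. They made up 23.8% of Dox 1 cells (exact 95% interval 17.6 to 30.98%) and 27.8% of Dox 2 cells (23.2 to 32.8%). In Control they made up 1.89% of cells (0.0478 to 10.1%). These intervals cover counting error within a pooled library, not the spread between libraries, and are no test of the treatment. Median depths in the class were 46928 and 36842 UMIs in Dox, against 30131 UMIs in Control, and deeper cells reach 5 detected G2/M genes more easily. The shares also depended on the clusters. At Leiden resolution 0.5, 53 of 184 Dox 1 cells and 175 of 443 Dox 2 cells cycled, against 1 of 55 Control cells. At resolution 2, 19 of 140 Dox 1 cells and 65 of 281 Dox 2 cells cycled, against 1 of 47 Control cells. Clusters without a cell type name held 229 of 595 and 345 of 925 Dox cells and 44 of 283 Control cells. They held 79 of 163 and 188 of 355 cycling Dox cells, which the epithelium-like class leaves out. Their epithelium markers summed to 7712 and 9680 CPM in Dox and 16060 CPM in Control. How many of these unnamed cells are epithelium was not tested. The summed level of mesenchyme markers in the class was 4336 and 3301 CPM in Dox, against 13091 CPM in Control, with 20, 21 and 15 of 27 markers detected. The epithelium markers of the class were lower in Dox too, at 10161 and 13196 CPM, against 26455 CPM in Control. Glia markers lay on both sides of Control, at 330 and 217 CPM in Dox, against 313 CPM. Cells with little of the nuclear RNA Malat1 made up 20.2% and 4.21% of the Dox cells and 22.6% of the Control cells. Without the cells of little Malat1, 5 members were again called higher and 0 lower, among them Ezh2 at 1.24 and Chd4 at 0.70. The part of these marker differences in the results was not tested.

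For cycling, a direct value could be had by leaving out every cell above 0.02% of G2/M UMIs, a split chosen after seeing the data, which kept 90 and 156 Dox cells and 49 Control cells. Of the 31 members then tested, 0 were called by edgeR, against 6.28% of the 11854 genes. At an unadjusted p under 0.05 by edgeR stood 9 members and 2990 of all genes. Ezh2 had 29.1 and 38.8 CPM in the Dox libraries, against 19.5 CPM in Control among these cells (log2 difference 0.81 ± 0.31 SE), with an adjusted p of 0.1801 by edgeR. Dnmt1 had 61.4 and 74.5 CPM in the Dox libraries, against 77.9 CPM in Control, below Control in both Dox libraries. Tet1 had 15.2 and 15.3 CPM in the Dox libraries, against 3.44 CPM in Control (log2 difference 2.14 ± 0.44 SE), with an adjusted p of 0.0527 by edgeR. Kdm6b had 132 and 112 CPM in the Dox libraries, against 66.5 CPM in Control (log2 difference 0.87 ± 0.21 SE), with an adjusted p of 0.0725 by edgeR. Chd4 had 385 and 379 CPM in the Dox libraries, against 264 CPM in Control (log2 difference 0.53 ± 0.15 SE). For all 5 genes called in the whole class the Dox libraries stayed above Control among non-cycling cells, and the differences were smaller than in the whole class: that of Ezh2 was 0.81 instead of 1.25, and those of Tet1, Kdm6b, Chd4 and Dnmt3b were 2.14, 0.87, 0.53 and 3.09. Myc and Notch1 were still called, at 1.66 and 3.12.

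**Figure D2:**
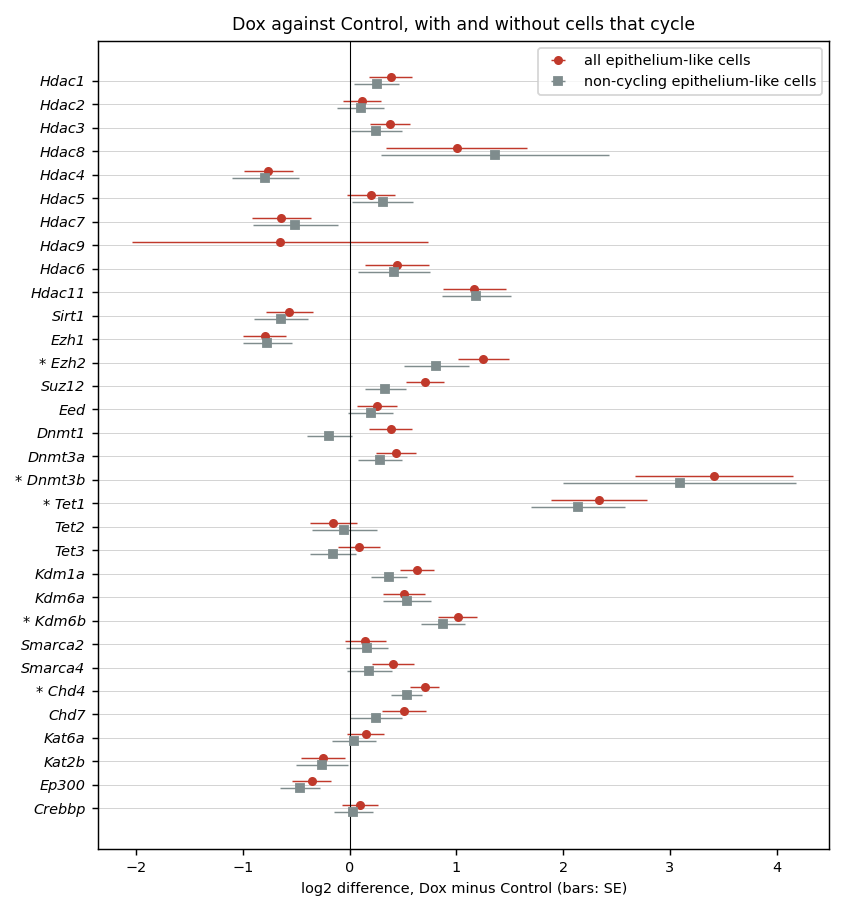
Log2 difference, Dox minus Control, of the 32 genes in all epithelium-like cells (circles) and of the 31 tested in non-cycling epithelium-like cells (squares), with SE bars and an asterisk at the 5 genes called in all cells. Ezh2 sits at 1.25 in all cells and at 0.81 in non-cycling cells, while Tet1 sits at 2.33 and 2.14.

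The calls also depended on the clusters. At a finer clustering (Leiden resolution 2), or with each library clustered alone, 0 members were called in the epithelium-like class, where edgeR called 433 and 0 genes in all. With total counts in place of TMM scaling, 32.4% of all called genes were higher in Dox, against 58.9% with TMM, and the median of all genes was -0.22.

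Genes that work with the members were read from lists of partners. In epithelium-like cells, 13 of 113 partner genes tested were higher and 2 lower, against 9.37% and 6.53% of all genes, and up to 4 in a list are named. Among deacetylase partners 1 of 23 rose and 1 fell: the NuRD subunit Mta1 rose (log2 difference 1.62) and the methyl-CpG reader Mbd2 fell by 0.93 on the log2 scale. Among 16 Polycomb partners, Phf1, an accessory subunit that binds histone H3 methylated at lysine 36, fell by 2.01. The DNA methylation partner Hells, a remodeller, rose (log2 difference 2.29). Of 28 histone methyltransferases and other demethylases, 5 rose and 0 fell, among them Wdr5 (1.37), Suv39h2 (2.05), Dpy30 (0.74) and Kdm2b (1.09). Of 25 SWI/SNF and other remodeller genes, 5 rose and 0 fell, among them Ruvbl1 (1.62), Ruvbl2 (1.69), Smarcc1 (1.10) and Chd1 (1.00). The acetyltransferase Kat2a rose (2.20), 1 of 13 in its list. The median of the 6 lists ranged from 0.04 to 0.63. Among non-cycling epithelium-like cells, 1 of 111 partner genes tested was higher, Mta1, and 1 was lower, Mbd2. Of all 11854 genes tested there, 6.28% were called. The calls of Kdm2b and Dpy30 were lost under 8 of 13 and 7 of 14 alternatives. Each other partner call named was lost under some too, from 1 of 13 for Mta1 to 5 of 13 for Wdr5. DESeq2 was among the losses for Kdm2b, Dpy30, Wdr5, Suv39h2, Kat2a, Phf1 and Mbd2. The Control values of Suv39h2 and Kat2a rest on 6 and 8 UMIs.

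In the other classes no member was called. Supporting cell-like cells had 0 of 29 tested members called by edgeR, against 8.45% of 8902 genes, and 0 called by DESeq2. At an unadjusted p under 0.05 by edgeR stood 5 members and 2052 of all genes. Chd4 came nearest, with 422 and 437 CPM in the Dox libraries, against 245 CPM in Control (adjusted p = 0.0609 by edgeR). Ezh2 had 31.5 and 36.1 CPM in the Dox libraries, against 27.2 CPM in Control, and Tet3 had 32.01 and 26.4 CPM in the Dox libraries, against 65.2 CPM in Control. Ep300 had 53.9 and 48.5 CPM in the Dox libraries, against 103 CPM in Control, with both Dox libraries at about the same distance below Control. In this class Notch1 had 433 and 494 CPM in the Dox libraries, against 35.3 CPM in Control (log2 difference 3.70 ± 0.33 SE, adjusted p = 5.44e-05 by edgeR), and Myc had 39.5 and 63.8 CPM in the Dox libraries, against 10.9 CPM in Control (adjusted p = 0.0682 by edgeR). Of 100 partner genes tested 4 were called, against 8.45% of all genes: Mta1 (2.45), Smarcc1 (1.09), Hells and Wdr5. The last 2 had 1 Control UMI each, with Dox to Control ratios of 13.2 (2.31 to 526) and 10.4 (1.801 to 414). The 4 partner calls were lost under 3 of 10 alternatives for Mta1, 7 of 10 for Smarcc1, 3 of 8 for Hells and 4 of 9 for Wdr5. The 3 deepest cells held 29.5% and 34.3% of this class's UMIs in Dox, against 45.5% in Control, and 3 of 57 and 1 of 26 Dox cells cycled, against 0 of 23 Control cells, which allows up to 13.0%. Cells with little Malat1 made up 54.4% and 46.2% of the class in Dox and 52.2% in Control. Without them 26 and 14 Dox cells and 11 Control cells were left, too few to be compared. With total counts in place of TMM scaling, 24.4% of all called genes were higher in Dox in this class, against 66.0% with TMM, and the median of all genes was -0.47.

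Glia-like cells had 0 of 28 tested members called by edgeR, against 7.05% of 7618 genes, and 0 called by DESeq2. At an unadjusted p under 0.05 by edgeR stood 3 members and 1604 of all genes. Hdac5 had 19.4 and 11.3 CPM in the Dox libraries, against 43.3 CPM in Control, and Hdac7 had 12.5 and 20.8 CPM in the Dox libraries, against 40.2 CPM in Control. Tet1 had 40.2 and 33.97 CPM in the Dox libraries, against 15.5 CPM in Control. The induced genes passed here, Myc with 108 and 71.7 CPM in the Dox libraries, against 27.8 CPM in Control (log2 difference 1.70 ± 0.48 SE, adjusted p = 0.0375 by edgeR) and Notch1 with 662 and 374 CPM in the Dox libraries, against 61.9 CPM in Control (log2 difference 3.07 ± 0.45 SE, adjusted p = 0.000357 by edgeR). Of 97 partner genes tested 2 were called, against 7.05% of all genes. Both were Polycomb genes that fell, Jarid2 by 1.86 and Phc2 by 1.29 on the log2 scale. With total counts 30.7% of all called genes were higher in Dox, against 47.7% with TMM.

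Macrophage-like cells had 0 of 24 tested members called by edgeR, against 2.18% of 7740 genes, and 0 called by DESeq2. At an unadjusted p under 0.05 by edgeR stood 0 members and 636 of all genes. The class also held neutrophil markers, which summed to 22096 and 15001 CPM in Dox and 13619 CPM in Control. Its macrophage markers summed to 25889 and 10729 CPM in Dox and 23153 CPM in Control. How far the values of the class belong to either cell type was not tested. Ezh2 had 45.3 and 89.5 CPM in the Dox libraries, against 117 CPM in Control, and Dnmt1 had 71.4 and 141 CPM in the Dox libraries, against 114 CPM in Control, and the Dox libraries lay far apart for both. Neither induced gene passed in this class: Myc had 24.7 and 42.5 CPM in the Dox libraries, against 52.8 CPM in Control, and Notch1 had 176 and 162 CPM in the Dox libraries, against 66.7 CPM in Control.

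Whether the effect of Dox differed between classes was tested as an interaction. Epithelium-like minus glia-like effects were called for 0 of 29 members and 0% of 10973 genes by edgeR, with 835 genes and 2 members at an unadjusted p under 0.05. Epithelium-like minus macrophage-like effects were called for 0 of 29 members and 0% of 10973 genes, with 1190 genes and 1 member at an unadjusted p under 0.05. The members called in epithelium-like cells and in no other class are therefore not shown to differ between classes.

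Summed over all kept cells, where the makeup of the libraries enters, 6 members were higher in Dox and 1 was lower, of 32 tested. The background was 10.1% of 15421 genes called higher and 8.33% called lower. With total counts 30.8% of all called genes were higher in Dox, against 54.9% with TMM, and 1 member was called higher and 6 lower. Ezh2 had 94.2 and 115 CPM in the Dox libraries, against 38.6 CPM in Control, and Dnmt1 had 120.02 and 166 CPM in the Dox libraries, against 59.9 CPM in Control. Their log2 differences of 1.44 ± 0.20 and 1.26 ± 0.25 SE had adjusted p of 0.0241 and 0.0417 by edgeR. Suz12, Tet1, Kdm1a and Chd4 were also higher, by 0.92, 1.19, 0.83 and 0.60. Cycling cells made up 27.4% and 38.4% of all kept Dox cells, against 3.18% in Control, and among non-cycling cells of every class 0 members were called higher.

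Hdac9, a class IIa deacetylase, was the member called lower over all kept cells, with 2.39 and 3.04 CPM in the Dox libraries, against 17.3 CPM in Control (log2 difference -2.66 ± 0.30 SE, adjusted p = 0.0196 by edgeR). Mesenchyme-like cells, where Hdac9 had 18.2 CPM in Dox 2 and 38.2 CPM in Control, were 4 of 595 and 75 of 925 Dox cells, against 114 of 283 Control cells. That class joined different clusters. The cluster led by Tnfrsf11b held 97 Control cells and 0 Dox cells, and the cluster led by Tnc held 17 Control, 4 Dox 1 and 75 Dox 2 cells. In epithelium-like cells the same gene had 0.449 and 0.692 CPM in the Dox libraries and 1.14 CPM in Control. Of 114 partner genes tested over all kept cells, 18 were higher and 2 lower, against 10.1% and 8.33% of all genes. Those named, up to 4 a list, were Mta1 (1.16), Gatad2a (0.94), Phf1 (-1.93), Hells (2.81), Uhrf1 (2.56), Tdg (1.15), Dpy30 (1.29), Suv39h2 (2.24), Wdr5 (1.32), Setdb1 (0.80), Ruvbl1 (1.71), Ruvbl2 (1.75), Smarcc1 (1.17), Baz1a (1.30), Kat2a (1.56) and Hat1 (1.26), given as log2 differences, Dox minus Control.

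The second question was how the members differ between cycling and non-cycling cells of the same class. Only the Dox libraries had enough cycling epithelium-like cells, 40 in Dox 1 and 99 in Dox 2, set against 90 and 156 non-cycling cells, with the library as a block, and 38 and 101 cells that lay between the limits were left out. Mki67 and Top2a belong to the list that defined the split. Of the 31 members tested, 6 were higher in cycling cells and 0 were lower, against 12.6% of 11607 genes called higher and 10.5% called lower. All 6 had higher levels in both libraries, and the median of the members was 0.09, against -0.0027 over all genes.

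Ezh2 stood out most, with 103 and 127 CPM in cycling cells of Dox 1 and Dox 2, against 27.4 and 36.2 CPM in non-cycling cells (log2 difference 1.85 ± 0.13 SE, adjusted p = 2.78e-08 by edgeR). Dnmt1, whose protein travels with replication forks, had 141 and 155 CPM in cycling cells of Dox 1 and Dox 2, against 57.8 and 69.5 CPM in non-cycling cells (log2 difference 1.21 ± 0.12 SE, adjusted p = 1.2e-06 by edgeR). Suz12 had 141 and 173 CPM in cycling cells of Dox 1 and Dox 2, against 89.8 and 96.9 CPM in non-cycling cells (log2 difference 0.75 ± 0.12 SE, adjusted p = 0.000156 by edgeR). These 3 are the members in whose listed promoters an E2F-type word was found, in a search made after these values were seen. The listed promoters of Kdm1a, Smarca4 and Chd4, which were also called, held none.

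The differences of Kdm1a, Smarca4 and Chd4 were smaller. Kdm1a had 212 and 229 CPM in cycling cells of Dox 1 and Dox 2, against 162 and 174 CPM in non-cycling cells (log2 difference 0.39 ± 0.10 SE, adjusted p = 0.0106 by edgeR). Smarca4 had 92.9 and 120.1 CPM in cycling cells of Dox 1 and Dox 2, against 75.2 and 90.4 CPM in non-cycling cells (log2 difference 0.36 ± 0.12 SE, adjusted p = 0.0396 by edgeR). Chd4 had 423 and 438 CPM in cycling cells of Dox 1 and Dox 2, against 362 and 353 CPM in non-cycling cells (log2 difference 0.27 ± 0.09 SE, adjusted p = 0.0396 by edgeR). The calls of Kdm1a, Smarca4 and Chd4 were lost under 4 of 13, 7 of 12 and 9 of 13 alternatives, DESeq2 among them for each.

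**Figure D3:**
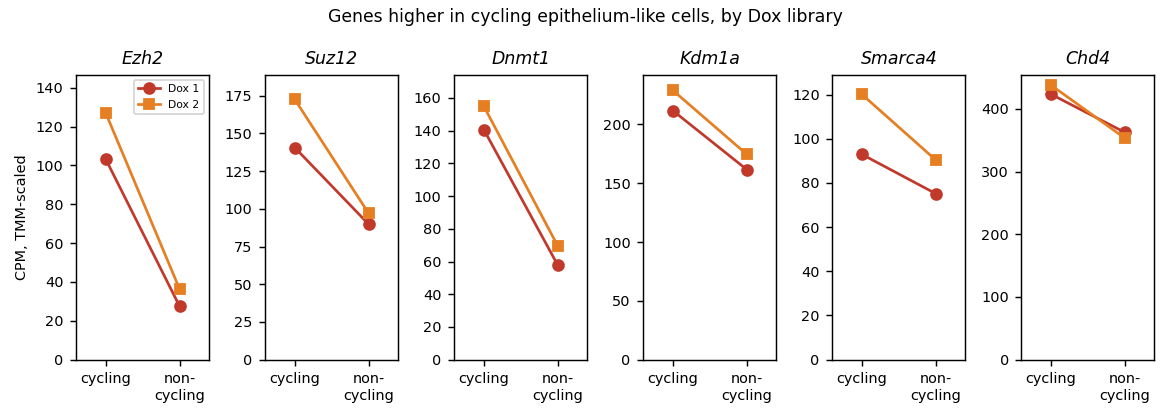
CPM (TMM-scaled, axes from 0) of the 6 genes called higher in cycling epithelium-like cells, with cycling cells left and non-cycling cells right and a line for each Dox library. Ezh2 has 103 and 127 CPM in cycling cells, against 27.4 and 36.2 CPM in non-cycling cells, a steeper line than that of Chd4.

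The other genes of Polycomb repressive complex 2 did not pass the test. Ezh1 had 21.6 and 18.4 CPM in cycling cells of Dox 1 and Dox 2, against 22.2 and 20.7 CPM in non-cycling cells, and Eed had 48.6 and 51.2 CPM in cycling cells of Dox 1 and Dox 2, against 43.2 and 46.5 CPM in non-cycling cells. The genes called in the Dox comparison also split: Tet1 had 26.7 and 11.9 CPM in cycling cells of Dox 1 and Dox 2, against 14.3 and 14.3 CPM in non-cycling cells, higher in one library and lower in the other. Kdm6b had 115 and 110.1 CPM in cycling cells of Dox 1 and Dox 2, against 124 and 104 CPM in non-cycling cells, with a log2 difference of -0.01 ± 0.12 SE. Dnmt3b had 3.597 and 6.93 CPM in cycling cells of Dox 1 and Dox 2, against 6.09 and 3.84 CPM in non-cycling cells, on opposite sides in the libraries.

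The de novo methyltransferase Dnmt3a had 63.9 and 51.1 CPM in cycling cells of Dox 1 and Dox 2, against 57.2 and 52.9 CPM in non-cycling cells. Tet3 had 45.6 and 39.5 CPM in cycling cells of Dox 1 and Dox 2, against 33.5 and 34.02 CPM in non-cycling cells, and Tet2 had 23.98 and 19.4 CPM in cycling cells of Dox 1 and Dox 2, against 18.9 and 25.2 CPM in non-cycling cells. Among the deacetylases, Hdac2 came nearest to the threshold, with 95.03 and 104 CPM in cycling cells of Dox 1 and Dox 2, against 70.9 and 87.8 CPM in non-cycling cells (adjusted p = 0.0682 by edgeR). Hdac11 was lower in cycling cells of both libraries without passing, with 14.7 and 14.6 CPM in cycling cells of Dox 1 and Dox 2, against 22.2 and 19.6 CPM in non-cycling cells (adjusted p = 0.07995 by edgeR). The other deacetylases tested and Sirt1 had log2 differences between -0.28 (Hdac5) and 0.27 (Hdac1), and Hdac9 was too low to be tested. Kat6a had a difference of 0.27, Ep300 of 0.13, Kat2b of -0.02 and Crebbp of -0.04, none of them called.

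Cycling cells were deeper, with medians of 67464 and 48518 UMIs against 30275 and 35032 UMIs in non-cycling cells. The definition favours this, since deep cells reach 5 detected G2/M genes more easily. Cycling cells also held less of the low-Malat1 cells, 5.00% of 40 and 0 of 99 cells, against 32.2% and 9.62%. The states also drew on the clusters of the class unequally. The Gabrp-led cluster gave 24 of 40 and 58 of 99 cycling cells, against 13 of 90 and 40 of 156 non-cycling cells. The supporting cell-like cluster gave 3 and 1 cycling cells, against 46 and 24 non-cycling cells. In the Gabrp-led cluster alone, Ezh2, Suz12 and Dnmt1 were called higher and Kdm1a, Smarca4 and Chd4 were not. The part of the cluster mix in the calls was not tested further. The induced genes did not pass in this comparison: Myc had 52.8 and 59.2 CPM in cycling cells of Dox 1 and Dox 2, against 49.6 and 55.8 CPM in non-cycling cells, and Notch1 had 426 and 335 CPM in cycling cells of Dox 1 and Dox 2, against 545 and 373 CPM in non-cycling cells.

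Of 112 partner genes tested between cycling and non-cycling epithelium-like cells, 31 were higher and 5 lower, against 12.6% and 10.5% of all genes, and up to 4 are named in each list. Of the DNA methylation partners, 5 of 8 tested were higher. Uhrf1, which guides Dnmt1 to hemimethylated DNA, had 40.8 and 77.7 CPM in cycling cells, against 3.96 and 4.39 CPM in non-cycling cells (log2 difference 3.87, adjusted p = 1.61e-09 by edgeR). Hells (2.61), Mbd4 (1.22) and Uhrf2 (0.72) were higher too. Of 28 histone methyltransferases and other demethylases 7 were higher and 1 lower, among them Suv39h2 (2.14), Suv39h1 (1.75), Nsd2 (1.20) and Dpy30 (0.62). Of 25 remodeller genes 10 were higher and 1 lower, among them Ruvbl2 (1.12), Baz1a (0.67), Pbrm1 (0.66) and Smarca5 (0.42). Of 13 acetyltransferases and acetyl readers 4 were higher, among them Hat1 (1.11), Kat7 (0.64) and Ep400 (0.42). Of 23 deacetylase partners 4 were higher and 2 lower, among them Rbbp7 (0.67), Mbd2 (0.51), Sap30 (0.51) and Chd3 (-0.47). Of 15 Polycomb partners tested, Pcgf2 was higher (0.65) and Phf1 lower (-1.66).

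Pericyte-like cells of the Dox libraries, taken up after the data were seen, gave a second class with cells in both states, 33 and 20 cycling against 53 and 28 non-cycling cells. Of 29 members tested, 3 were higher in cycling cells and 2 lower, against 7.84% of 8994 genes called higher and 4.98% called lower. Ezh2 had 142 and 146 CPM in cycling cells of Dox 1 and Dox 2, against 56.2 and 57.8 CPM in non-cycling cells (log2 difference 1.33 ± 0.20 SE, adjusted p = 6.99e-09 by edgeR). Dnmt1 had 126 and 124 CPM in cycling cells of Dox 1 and Dox 2, against 28.98 and 34.4 CPM in non-cycling cells (log2 difference 2.02 ± 0.22 SE, adjusted p = 6.34e-15 by edgeR). Smarca4 had 98.5 and 95.9 CPM in cycling cells of Dox 1 and Dox 2, against 53.98 and 57.8 CPM in non-cycling cells (log2 difference 0.81 ± 0.21 SE, adjusted p = 0.0018005 by edgeR). All 3 lay above the non-cycling cells of both libraries.

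The members lower in cycling pericyte-like cells were Hdac9, with 3.398 and 1.899 CPM in cycling cells of Dox 1 and Dox 2, against 11.9 and 18.7 CPM in non-cycling cells (log2 difference -2.30 ± 0.59 SE, adjusted p = 0.00189 by edgeR), and Tet2, with 21.5 and 20.9 CPM in cycling cells of Dox 1 and Dox 2, against 41.5 and 39.1 CPM in non-cycling cells (log2 difference -0.93 ± 0.29 SE, adjusted p = 0.0155 by edgeR). Tet2 did not move this way in epithelium-like cells, where its difference was -0.08, and whether the classes differ was not tested. Suz12 had 131 and 128 CPM in cycling cells of Dox 1 and Dox 2, against 84.1 and 122 CPM in non-cycling cells, which did not pass. Myc and Notch1 were lower in cycling pericyte-like cells, with log2 differences of -0.86 and -0.63 (adjusted p = 0.00165 and 0.00343 by edgeR). Of 104 partner genes tested, 12 were higher and 4 lower, against 7.84% and 4.98% of all genes. Up to 4 a list are named: Uhrf1 (4.48), Hells (2.26), Suv39h2 (1.86), Hat1 (1.59), Nsd2 (1.11), Actl6a (0.81), Ruvbl2 (0.78), Pbrm1 (0.54), Rbbp7 (0.54) and Mbd4 (1.89) were higher, and Kdm4a (-1.41), Kdm5b (-1.16), Sirt2 (-0.77) and Ino80 (-0.71) lower.

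**Figure D4:**
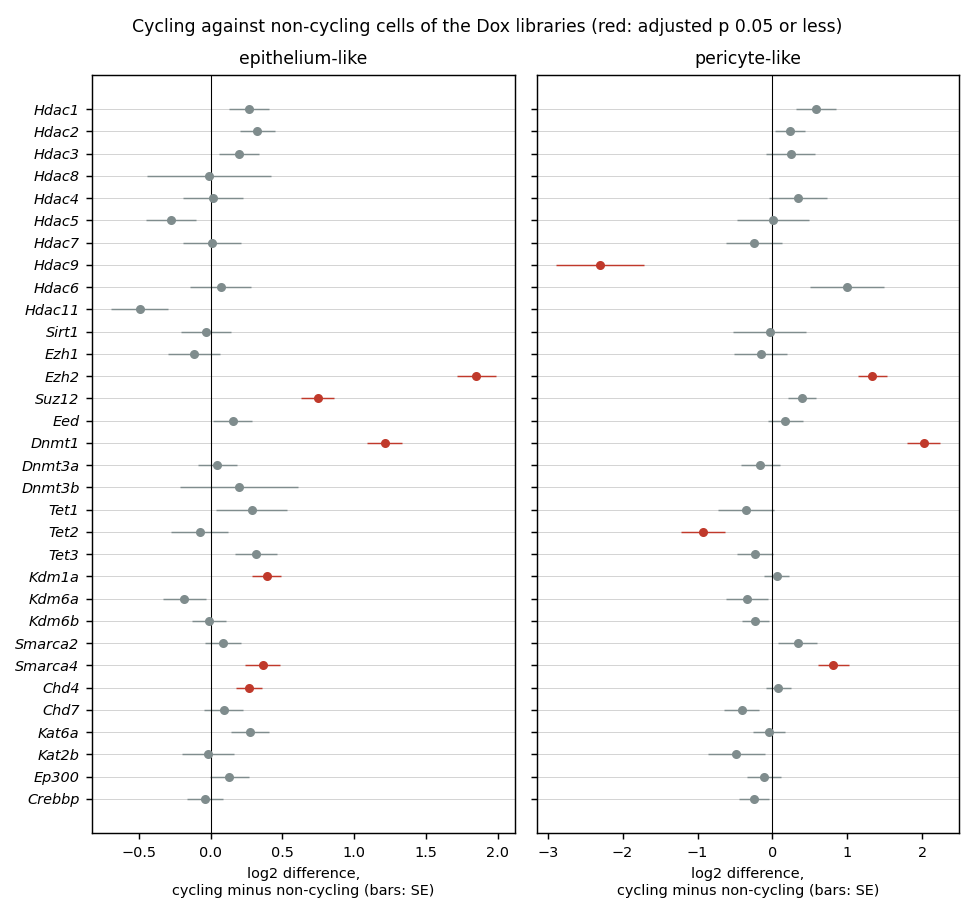
Log2 difference, cycling minus non-cycling, with SE bars, of the members tested in epithelium-like (left, 31 genes) and pericyte-like cells (right, 29 genes) of the Dox libraries, with called genes in red. Ezh2 and Dnmt1 lie right of 0 in both panels, at 1.85 and 1.21 on the left and 1.33 and 2.02 on the right.

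The level of each member by cell class is a description, given as CPM of all UMIs of the class without TMM scaling and without a test. Smarca2 was higher in epithelium-like cells, with 95.2 and 79.7 CPM in the Dox libraries and 95.96 CPM in Control, than in glia-like cells, with 34.5 and 39.8 CPM in the Dox libraries and 23.5 CPM in Control, or macrophage-like cells, with 34.5 and 32.3 CPM in the Dox libraries and 27.98 CPM in Control, and the libraries of the classes did not overlap. Hdac3 behaved alike, with 52.8 and 57.7 CPM in the Dox libraries and 51.7 CPM in Control in epithelium-like cells and 13.3 and 32.3 CPM in the Dox libraries and 19.6 CPM in Control in macrophage-like cells. Tet2, often mutated in human blood disorders, had 76.9 and 48.4 CPM in the Dox libraries and 101 CPM in Control in macrophage-like cells, above every other class shown in the same library, against 19.99 and 21.95 CPM in the Dox libraries and 28.4 CPM in Control in epithelium-like cells. The macrophage-like class also held neutrophil markers, so its levels are not those of macrophages alone. Tet1 had 0 UMIs in macrophage-like cells of Dox 1 and of Control, which allows up to 3.98 and 8.39 CPM, while glia-like cells had 35.7 and 32.5 CPM in the Dox libraries and 16.8 CPM in Control.

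Dnmt1 was low in glia-like cells, with 11.1 and 28.9 CPM in the Dox libraries and 33.6 CPM in Control, of which 2 of 38 and 0 of 50 Dox cells and 0 of 28 Control cells cycled, the zeros allowing up to 6.00% and 10.7%. Macrophage-like cells, of which 15.6% and 37.5% cycled in Dox and 13.0% in Control, had 68.98 and 137 CPM in the Dox libraries and 115 CPM in Control. Hdac11 had 19.1 and 16.7 CPM in the Dox libraries and 9.65 CPM in Control in epithelium-like cells and 1.33 and 1.47 CPM in the Dox libraries and 0 CPM in Control in macrophage-like cells. Kdm6a had 52.99 and 59.7 CPM in the Dox libraries and 80.7 CPM in Control in glia-like cells and 38.5 and 41.1 CPM in the Dox libraries and 34.1 CPM in Control in epithelium-like cells. Mesenchyme-like cells, not compared because Dox 1 had only 4, had 103 CPM of Ezh2 in Dox 2 and 42.9 CPM in Control, with 52.0% and 3.51% of them cycling, and 114 and 36.8 CPM of Dnmt1. Of the Control cells of this class, 97 lay in a cluster with 0 Dox cells, so these values set unlike cells side by side.

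**Figure D5:**
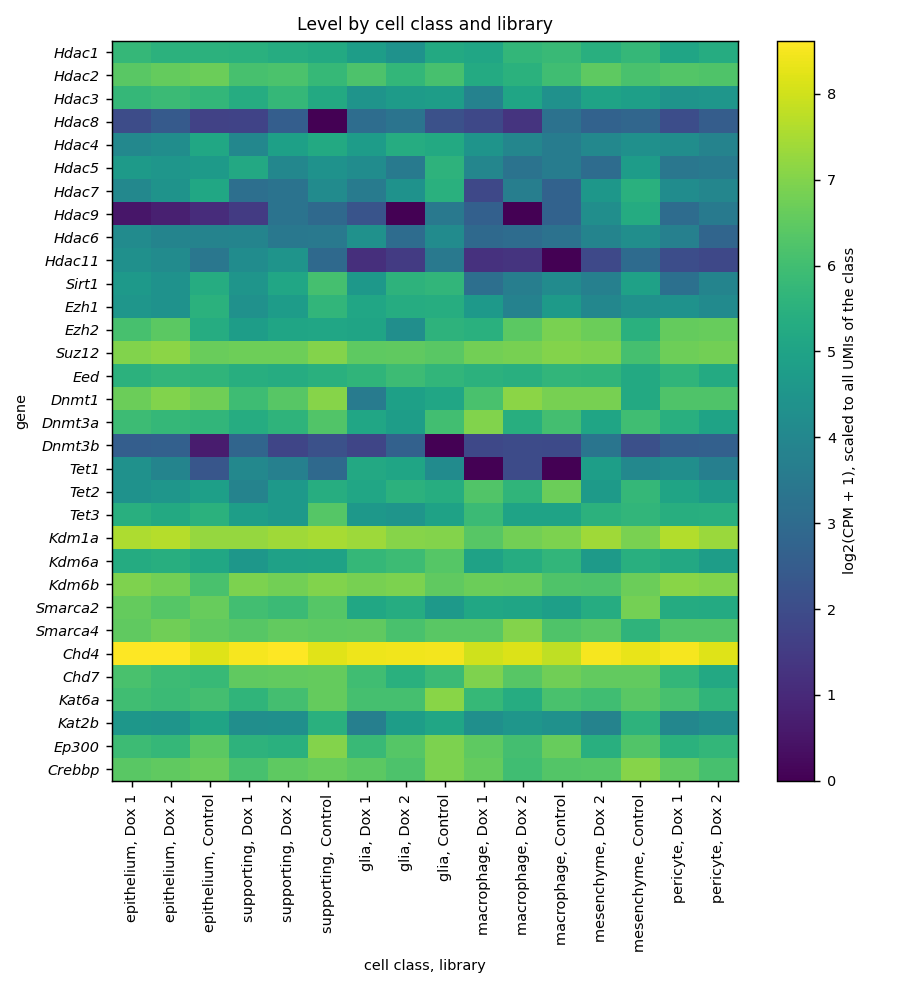
Level of the 32 genes as log2(CPM + 1), colour scale at right, by cell class and library, with Dox libraries left of Control within each class and a library left out of a class where it had fewer than 20 cells. Hdac9 is dark in epithelium-like and lighter in mesenchyme-like columns (18.2 CPM in Dox 2 and 38.2 CPM in Control), and Tet1 is darkest in macrophage-like columns.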

How the data were processed

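For each library the authors deposited 1 filtered matrix whose values are raw UMI counts, from 10x Genomics 3' kits of version 3.1, per the labels' protocols. The submitters' processing notes list the tools STAR, Seurat 3.2.2 and Cell Ranger 5.0 with mm10 (GRCm38) as build, whereas software version 3.1.0 stands in the headers of the matrices. The counting of introns: not given in the sources used here. Samples fall into the Dox and Control groups by their labels.

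The libraries held 788 and 1095 Dox and 512 Control barcodes, with 20309102, 33385927 and 5436731 UMIs. Barcodes needed 200 or more genes and no more than 20% of UMIs from mitochondria (636, 997 and 363), and then 41, 72 and 80 that another library held with more UMIs were left out. These had at most 1885 UMIs. Scrublet marked 0, 1 and 0 doublets, too few to be credible, so none were removed. Cells were clustered with scanpy 1.11.5 (2000 variable genes, 30 components, Leiden resolution 1, leidenalg 0.10.2), and a cluster took a cell type's name when its 25 leading genes held 3 or more of that type's markers. A rebuilt name may differ from the authors' own.

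UMI counts were summed per library and class and tested with edgeR 4.0.16 (R 4.3.3): TMM scaling, filterByExpr, quasi-likelihood F test with 1 residual degree of freedom (3 for the difference between classes), and Benjamini-Hochberg adjustment over all genes tested, with a call at 0.05 or less. Cycling cells were compared with non-cycling cells (under 0.02% of UMIs from the G2/M list) in the same fit type with the library as a block. Standard errors come from the F statistic. Intervals and floors (3 counts) cover counting error only. The steps were tested on simulated counts. A class was compared if every library gave it 20 cells or more. DESeq2 1.42.0 and the alternatives of cells, clusters, scaling and filters are in the closing section. Members are named with levels throughout, partner genes where called, at most 4 a list, and 1 called partner gene is counted in its list but not reported here by name. The members and lists were chosen with earlier results of these data known.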

Additional observations from a re-analysis of the deposited data

How the results depend on the processing

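In epithelium-like cells, 5 members were called higher in Dox and 0 lower. The count higher was 8 with no low-count filter, 8 with shared barcodes kept, 4 with total counts (Chd4 lost), 3 with DESeq2, and 0 with cells thinned to 1000 UMIs, at Leiden resolution 2, with each library clustered alone or with non-cycling cells only. The count lower was 3 with total count scaling, 2 without supporting cell-like cells, and 1 with DESeq2 size factors, no low-count filter, the strict filter on cells (500 genes or more, mitochondrial UMIs up to 10%), Leiden resolution 0.5, without the 3 deepest cells, or with shared barcodes kept. The members' median of 0.38 was 0.10 with total counts, 0.72 with thinned cells (fewer members were tested), 0.32 at resolution 2 and with libraries clustered alone, 0.25 in non-cycling cells, 0.29 without supporting cell-like cells, 0.26 without the 3 deepest cells and 0.31 with shared barcodes kept. Leaving out 1 Dox library gave 0.23 to 0.31, as values with no test. Supporting cell-like cells gave 1 member higher with no filter and at resolution 2, and 4, 2 and 1 lower with total counts, at resolution 2 and in non-cycling cells. Over all kept cells, 6 higher became 1 with total counts, 13 with no filter and 0 in non-cycling cells, and 1 lower became 6 with total counts, 3 with no filter and 0 with thinned cells. For cycling against non-cycling epithelium-like cells, 6 higher became 3 with DESeq2, in pericyte-like cells and in 1 cluster alone, 11 with cells of every class together and 0 with thinned cells, where the median was 0.39 instead of 0.09. Cells of every class together and pericyte-like cells gave 2 lower. Ezh2 and Dnmt1 were called higher in cycling cells under 12 of 13 alternatives, all but the thinned cells. The called partner genes Mbd2 (-0.22) and Baz1a (-0.11) reversed in pericyte-like cells and Pbrm1 (-0.06) with thinned cells, none of them called there. Where no construction shows it, the cause was not tested. The number of all genes called ran from 0 to 3726 for Dox in epithelium-like cells, from 141 to 1936 in supporting cell-like cells, from 5 to 890 in glia-like cells, from 0 to 207 in macrophage-like cells, from 939 to 5240 over all kept cells, and from 55 to 4819 for cycling. No paired analysis was possible because the Control library carries no replicate number. Depth limits Hdac8, Hdac9 and Dnmt3b most, with 4, 2 and 1 UMIs in the epithelium-like Control cells.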

Other observations

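Clusters without a cell type name entered only the comparisons over all kept cells, of treatments and of cycling state. Their leading genes and sizes are not results. A cluster led by histone genes and Mki67 held 25 Dox 1 and 59 Dox 2 cells and 0 Control cells, and 25 and 58 of them cycled. There Ezh2 had 187 and 181 CPM, Dnmt1 249 and 250.1 CPM and Suz12 200.2 and 200.02 CPM in Dox 1 and Dox 2, and Ezh1 had 10.7 and 14.6 CPM. Another cluster led by histone genes held 35 Dox 1 and 68 Dox 2 cells, of which 74.3% and 67.6% cycled. Its cells were shallow (medians of 3187 and 3280 UMIs), with little Malat1 in 85.7% and 76.5% of them. It had 180.1 and 163 CPM of Ezh2 and 201 and 246 CPM of Dnmt1. Kdm6b had 24.01 and 33.5 CPM there, and Tet2 had 3.001 and 4.47 CPM, which are 1 and 2 UMIs.

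A small cluster led by heat shock genes, with 22 Dox 1, 32 Dox 2 and 11 Control cells and medians of 2226 and 2731.5 UMIs in Dox, had 4246 and 10164 CPM of Notch1 and 296 and 687 CPM of Myc, both among the genes that define it. Among the members, Sirt1 had 127 and 120.4 CPM there (12 and 17 UMIs) and Kdm6b 191 and 227 CPM, while Dnmt1 had 0 and 2 UMIs. These cells were shallow and were picked out after their values were seen, so the levels are a description. In this cluster 0 of 22 Dox 1 cells, which allows up to 13.6%, and 1 of 32 Dox 2 cells cycled.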
